A study of Mus musculus with 10 samples.

Results

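IGF2BP1 and 6 related genes of fetal RNA and chromatin control were followed across meningioma-like tumors of the mouse. The set holds IGF2BP1 with its paralogs IGF2BP2 and IGF2BP3, the RNA-binding proteins LIN28A and LIN28B, and the chromatin proteins HMGA1 and HMGA2, 7 of the 16895 genes listed. IGF2BP1 was chosen for its rise in tumors made with NLS-2SA-YAP1, so its difference between the constructs is given as a description with no test. The other 6 genes were taken as its paralogs and partners, not for a value of their own.

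RNA-seq was done on 10 frozen tumors, 7 made with YAP1-MAML2-v2 and 3 with NLS-2SA-YAP1. Both were delivered by an avian RCAS retrovirus, released by chicken DF1 fibroblasts that were injected into the subarachnoid space of newborn pups. All mice were Cdkn2a null and carried tv-a, the receptor for the virus, driven by Nestin, so the virus could enter Nestin-expressing cells, and the age at collection is not given. YAP1-MAML2-v2 is a fusion of YAP1, the coactivator held in check by the Hippo pathway, with the Notch coactivator MAML2. The other construct, NLS-2SA-YAP1, is the constitutively active YAP1 of the series title. The labels name the injected DF1 cells as the cell type, although tumor tissue was sequenced. By the labels, YAP1-MAML2-v2 tumors 1, 3, 4 and 5 were extra cranial, 2 and 6 extra axial and 7 intra ventricular (numbers are replicates). Among NLS-2SA-YAP1 tumors replicate 1 was extra axial, and the other two were extra cranial. No normal tissue was analysed here. The labels do not say whether each tumor came from its own mouse, and the deposited names of YAP1-MAML2-v2 replicates 6 and 7 share a number, so p-values measure the spread between these samples only.

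Library totals ran from 28001143 to 44544314. These totals add up deposited values, which were not plain read counts: genes at 1 outnumbered genes at 2 by 4.54 to 6.82 times in every library. Depth is therefore unknown. Fitted folds of genes with values of 0 or 1, such as IGF2BP3, are printed, but no difference is read from them. The driver genes differed as labelled. YAP1 was 513 ± 86.6 CPM (deposited value scaled to library size, SD, n = 3) with NLS-2SA-YAP1 against 148 ± 16.2 (n = 7), and MAML2 was 16.4 ± 5.83 against 56.3 ± 32.8. Of 14 meningeal fibroblast and arachnoid markers, 11 to 13 were above 1 in each library, and their summed level ran from 1280 to 12000 CPM. The summed level of 12 skeletal muscle markers was 73.7 and 255 CPM in the extra cranial NLS-2SA-YAP1 tumors, and 53.8 CPM in YAP1-MAML2-v2 replicate 3, against 0.89 to 2.58 CPM elsewhere.

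These 7 genes are best known from the embryo, where they are active in growing tissue and then largely shut off, and many tumors express them again. IGF2BP proteins bind mRNAs, often at sites of m6A methylation, and guard them from decay. LIN28 proteins block the making of let-7, a microRNA of mature tissue that represses mRNAs through seed matches in the 3′ UTR. HMGA proteins bend AT-rich DNA and open chromatin, and HMGA2 is a classic let-7 target.

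The let-7 sequences are shown first because LIN28 proteins block this microRNA and HMGA2 is a known target of it. In the RefSeq table of mouse miRNAs (GRCm38.p6), 11 of 1679 mature sequences share the seed GAGGUAG at bases 2 to 8. They are let-7 members, miR-98 and miR-1961, and 4 of them are shown. The seed is in capitals.
mmu-let-7a-5p: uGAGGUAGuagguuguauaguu
mmu-let-7b-5p: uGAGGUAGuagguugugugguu
mmu-let-7i-5p: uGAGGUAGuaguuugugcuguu
mmu-miR-98-5p: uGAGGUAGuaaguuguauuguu
These microRNAs were not measured in the libraries.

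Every member had at least 1 match to this seed in its longest annotated 3′ UTR (GENCODE M21, mm10), on the strand of the mRNA. The motif searched was CTACCTC, and a match followed by A is an 8-base match. Of the 21020 genes with an annotated 3′ UTR, 9.02% held the motif. All 4 matches of Igf2bp1 and the match nearest the stop codon in each other member are given with 14 bases before them, and capitals mark the match.
Igf2bp1, chr11:95961778-95961799, minus strand: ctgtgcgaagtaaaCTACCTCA
Igf2bp1, chr11:95959357-95959378, minus strand: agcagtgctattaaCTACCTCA
Igf2bp1, chr11:95958763-95958784, minus strand: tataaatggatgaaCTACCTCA
Igf2bp1, chr11:95958140-95958161, minus strand: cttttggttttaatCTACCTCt
Igf2bp2, chr16:22059473-22059494, minus strand: cacacaaataaaagCTACCTCA
Igf2bp3, chr6:49086787-49086808, minus strand: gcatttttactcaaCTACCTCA
Lin28a, chr4:134005189-134005210, minus strand: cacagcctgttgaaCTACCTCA
Lin28b, chr10:45381022-45381043, minus strand: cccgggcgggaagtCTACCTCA
Hmga1, chr17:27563278-27563299, plus strand: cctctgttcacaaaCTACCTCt
Hmga2, chr10:120364224-120364245, minus strand: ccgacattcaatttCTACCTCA
Igf2bp1 has 3 matches followed by A and 1 followed by another base. Of the other members, Hmga1 alone has no match followed by A.

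IGF2BP1, LIN28B and HMGA2 held 4 matches each, LIN28A held 2, and IGF2BP2, IGF2BP3 and HMGA1 held 1 each. Long 3′ UTRs hold more matches, so each was set beside 3′ UTRs within 20% of its length. Among these, 0.355% held at least as many as IGF2BP1, 0.236% as many as LIN28B, 0.134% as many as HMGA2 and 2.1% as many as LIN28A. For the members with 1 match the share was 12.1% for IGF2BP2, 13.3% for IGF2BP3 and 8.07% for HMGA1. The LIN28 genes and HMGA2 were known for their link to let-7 before this search. These shares therefore describe the members, and nothing is read from them. A match is a run of letters and was not tested as a site of binding.

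**Figure D1:**
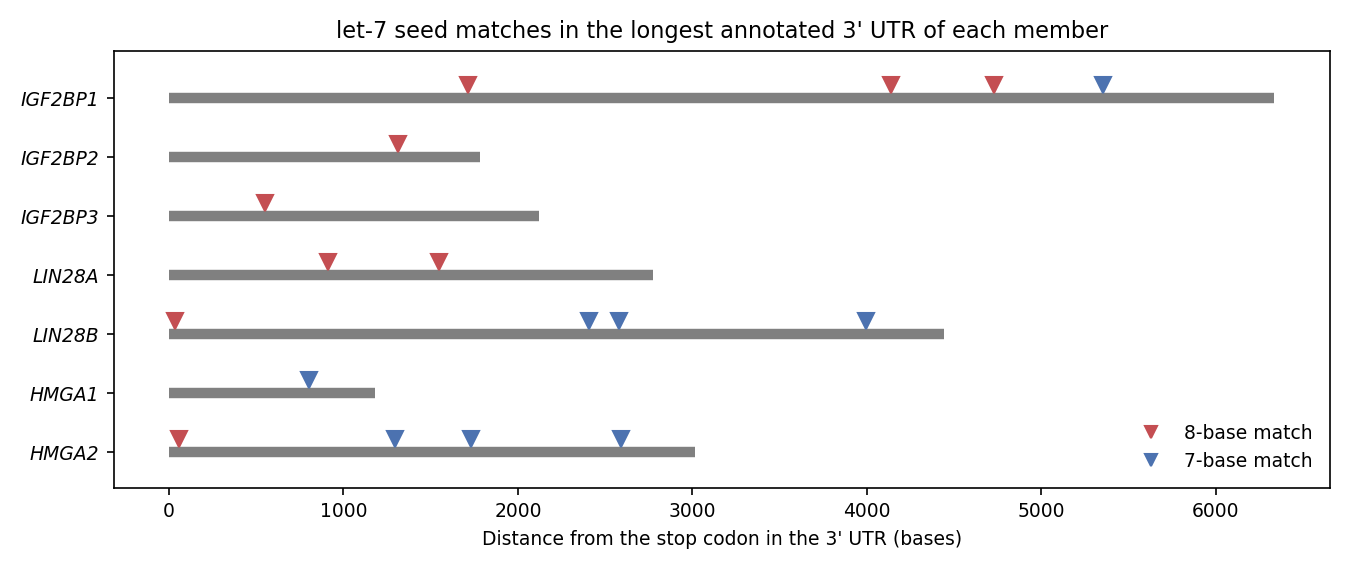
Longest annotated 3′ UTR of each member (grey bar), with the distance from the stop codon in bases on the horizontal axis and triangles for let-7 seed matches (red, 8 bases; blue, 7 bases). IGF2BP1 has the longest 3′ UTR, 6337 bases, and IGF2BP1, LIN28B and HMGA2 carry 4 matches each.

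IGF2BP1 was present in all 3 NLS-2SA-YAP1 tumors and essentially absent from the deposited values of the other 7. Its gene, Igf2bp1, spans chr11:95957163-96005940 on the minus strand (mm10), and the antisense gene Gm29202 overlaps its start. The deposited values were 392, 285 and 421 in NLS-2SA-YAP1 replicates 1, 2 and 3. Among YAP1-MAML2-v2 tumors 6 were listed at 0 and replicate 6 at 1. The groups did not overlap, and the NLS-2SA-YAP1 tumors lay close together at 9.38, 9.74 and 10.6 CPM (mean 9.9 ± 0.615, SD, n = 3). The extra axial tumor was the lowest of the 3 and both extra cranial tumors were above it. This difference is the reason the gene was chosen, and nothing is read from it.

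The same description was applied to every gene, which restates the choice of IGF2BP1 and supports nothing. Of all 16895 genes, 1 was listed at 0 or 1 in every YAP1-MAML2-v2 library and at 100 or more in every NLS-2SA-YAP1 library (0.00592%), and that was IGF2BP1. In the opposite direction the count was 0. Over the tested genes 508 of 13707 (3.71%) had every NLS-2SA-YAP1 library above every YAP1-MAML2-v2 library, and 3.03% had every one below. In whole tumors, fewer cells that express a gene and less RNA in each cell cannot be told apart.

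Markers of other cell types are set beside this level. Muscle markers summed to 1.29 CPM in NLS-2SA-YAP1 replicate 1, where IGF2BP1 was 9.38 CPM, and to 53.8 CPM in YAP1-MAML2-v2 replicate 3, where it was 0. Of 12 germ and pluripotent cell markers, 7 to 12 were at 0 or 1 in each library. They summed to 0.478 to 7.04 CPM with NLS-2SA-YAP1 against 0.157 to 52.7 CPM with YAP1-MAML2-v2. TDRD1 made up most of the highest sum, at 52 CPM in YAP1-MAML2-v2 replicate 6. The pluripotency factor NANOG was listed at 0 in all 10. Neural progenitor and neuron markers added up to 480 to 971 CPM with NLS-2SA-YAP1 (4 to 6 of 12 at 0 or 1) against 626 to 1080 CPM with YAP1-MAML2-v2 (0 to 9 of 12 at 0 or 1), and most of this was the tubulin TUBB3. Without it the sums were 18.5 to 124 CPM against 0.308 to 311 CPM, the highest in the intra ventricular tumor. Macrophage markers added up to 569 to 803 CPM against 367 to 2470 CPM. Cell cycle genes summed to 419 to 605 CPM against 196 to 1380 CPM. The part of any of these cell types in the level of IGF2BP1 was not tested.

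Some genes had nearly the same pattern over the 10 libraries. The highest Pearson correlations with IGF2BP1 on log2 CPM belonged to SOWAHD (r = 0.993), MBD1 (0.985), RAPSN (0.982), YAP1 (0.978) and SORBS3 (0.971). MBD1, a methyl-CpG binding protein, ranged from 91.3 to 107 CPM with NLS-2SA-YAP1 against 49.4 to 55.6 CPM with YAP1-MAML2-v2. SORBS3, the adhesion protein vinexin, had 231 to 263 CPM against 97 to 127 CPM. RAPSN, the synaptic scaffold rapsyn, and SOWAHD were low, at most 1.26 and 1.94 CPM. Since IGF2BP1 is flat within each construct, these correlations follow the split of 3 against 7 libraries, and the share of YAP1 that is construct transcript is unknown here.

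IGF2BP2 was the IGF2BP paralog found well above a value of 1 in every tumor. It is the family member most often retained after birth, and it also binds IGF2 mRNA. Its values were 12.6, 5.69, 35.3, 5.16, 29, 6.83 and 181 CPM in YAP1-MAML2-v2 replicates 1 to 7 and, for NLS-2SA-YAP1, 4.12, 7.58 and 19.8 CPM in replicates 1 to 3. The groups overlapped, and the intra ventricular tumor was far above the rest. Between constructs edgeR fitted a log2 fold change of -0.59 (SE 0.58, adjusted p = 0.725).

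IGF2BP3, an oncofetal marker of several carcinomas, was low everywhere. It ran from 0.0262 to 1.8 CPM in YAP1-MAML2-v2 tumors (median 0.142) and with NLS-2SA-YAP1 it was 0.503, 0.0342 and 0.452 CPM in replicates 1 to 3. One library of each construct was listed at 1, and the groups overlapped. EdgeR fitted a log2 fold change of 0.30 (SE 1.66, adjusted p = 0.966), whose sign turned in 7 of 20 other settings. The gene Malsu1 overlaps Igf2bp3 on the other strand, and whether the counting used strand is unknown here.

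Per kilobase of exon, the make-up of the family differed between the constructs. IGF2BP2 made up 94.7% to 99.7% of the summed level of the 3 paralogs in YAP1-MAML2-v2 tumors. In NLS-2SA-YAP1 tumors IGF2BP1 made up 61.1%, 49.4% and 28.6% in replicates 1, 2 and 3. IGF2BP1 itself was steady there, at 0.969, 1.01 and 1.09 CPM per kilobase, while IGF2BP2 went from 0.556 to 1.02 and 2.68. The summed level overlapped between the constructs, at 1.59 to 3.83 CPM per kilobase in NLS-2SA-YAP1 and 0.715 to 24.6 in YAP1-MAML2-v2 tumors. These shares follow from the choice of IGF2BP1 and carry no test.

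**Figure D2:**
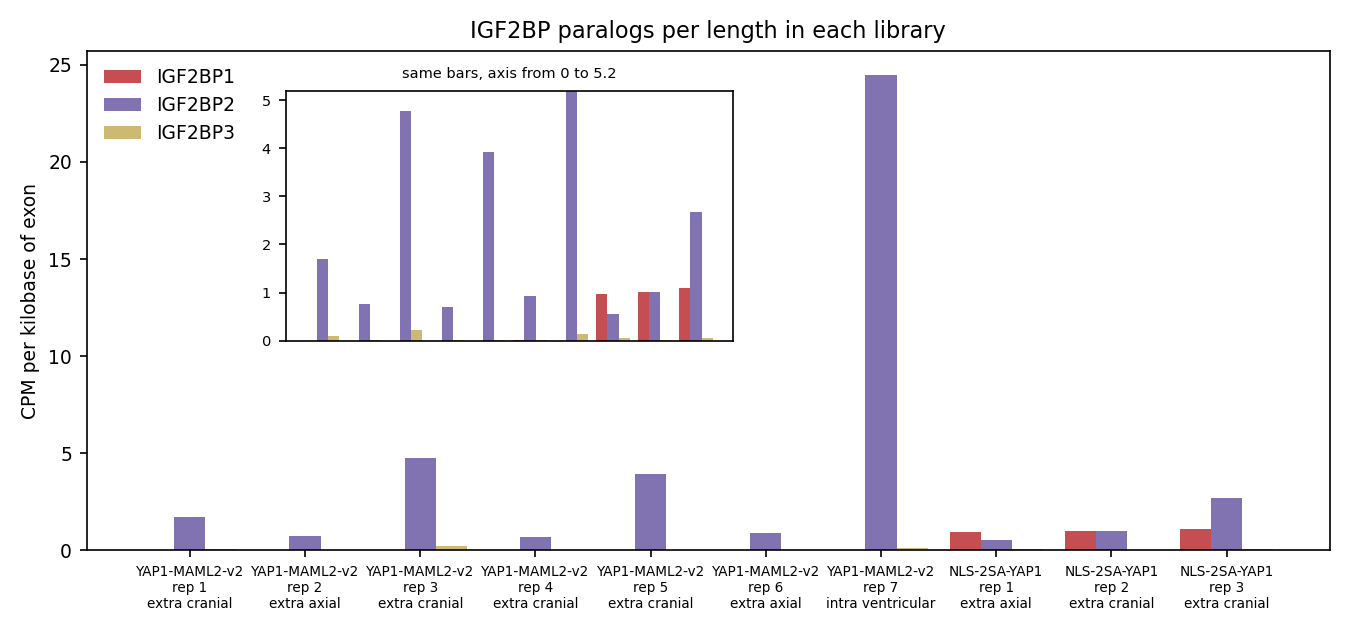
CPM per kilobase of exon (vertical axis) of IGF2BP1 (red), IGF2BP2 (purple) and IGF2BP3 (yellow) in each of the 10 libraries, named with replicate and region on the horizontal axis; the inset repeats the bars on a shorter axis, where the intra ventricular bar is cut off. IGF2BP1 is visible in the 3 NLS-2SA-YAP1 libraries only, and IGF2BP2 reaches 24.5 in the intra ventricular library.

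LIN28A and LIN28B, the brakes on let-7, were close to absent. The deposited LIN28A value was 8 for YAP1-MAML2-v2 replicate 5, 1 for replicate 2 and 0 for the other 8 libraries. That of LIN28B was 1 for YAP1-MAML2-v2 replicate 7 and 0 for the other 9 libraries. Neither passed the filter on low values, so neither was tested, and the NLS-2SA-YAP1 tumors were at 0 for both. The tumors with IGF2BP1 thus had no LIN28 value above 0, which also held for YAP1-MAML2-v2 replicates 1, 3, 4 and 6. Since 0 and 1 are in excess among the deposited values, a listed 0 does not prove absence.

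HMGA1, an architectural factor of dividing cells, was found in all 10 tumors. It had 15.4, 8.18, 20.6, 5.36, 47.2, 41.1 and 23 CPM in YAP1-MAML2-v2 replicates 1 to 7 and, for NLS-2SA-YAP1, 7.87, 12 and 13.3 CPM in replicates 1 to 3. YAP1-MAML2-v2 replicates 5 and 6 were the highest, and the groups overlapped. The edgeR log2 fold change was -1.07 (SE 0.72, adjusted p = 0.565). The annotation holds Hmga1b on chromosome 11, a copy of the gene, and how reads shared between them were counted is unknown here, so this level is uncertain.

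HMGA2 spanned a wide range. Its values were 1.37, 2.36, 5.26, 0.113, 0.363, 0.0562 and 37.7 CPM in YAP1-MAML2-v2 replicates 1 to 7 and, for NLS-2SA-YAP1, 1.34, 3.83 and 2.46 CPM in replicates 1 to 3. The NLS-2SA-YAP1 tumors sat in a narrow band inside the range of the others. The edgeR log2 fold change was 0.61 (SE 1.20, adjusted p = 0.89), and it was -1.41 without the region term. The antisense genes 1700006J14Rik and 9230105E05Rik overlap Hmga2. HMGA2 made up at most 9.1% of the summed HMGA1 and HMGA2 level per kilobase in 9 libraries and 34% in the intra ventricular one.

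**Figure D3:**
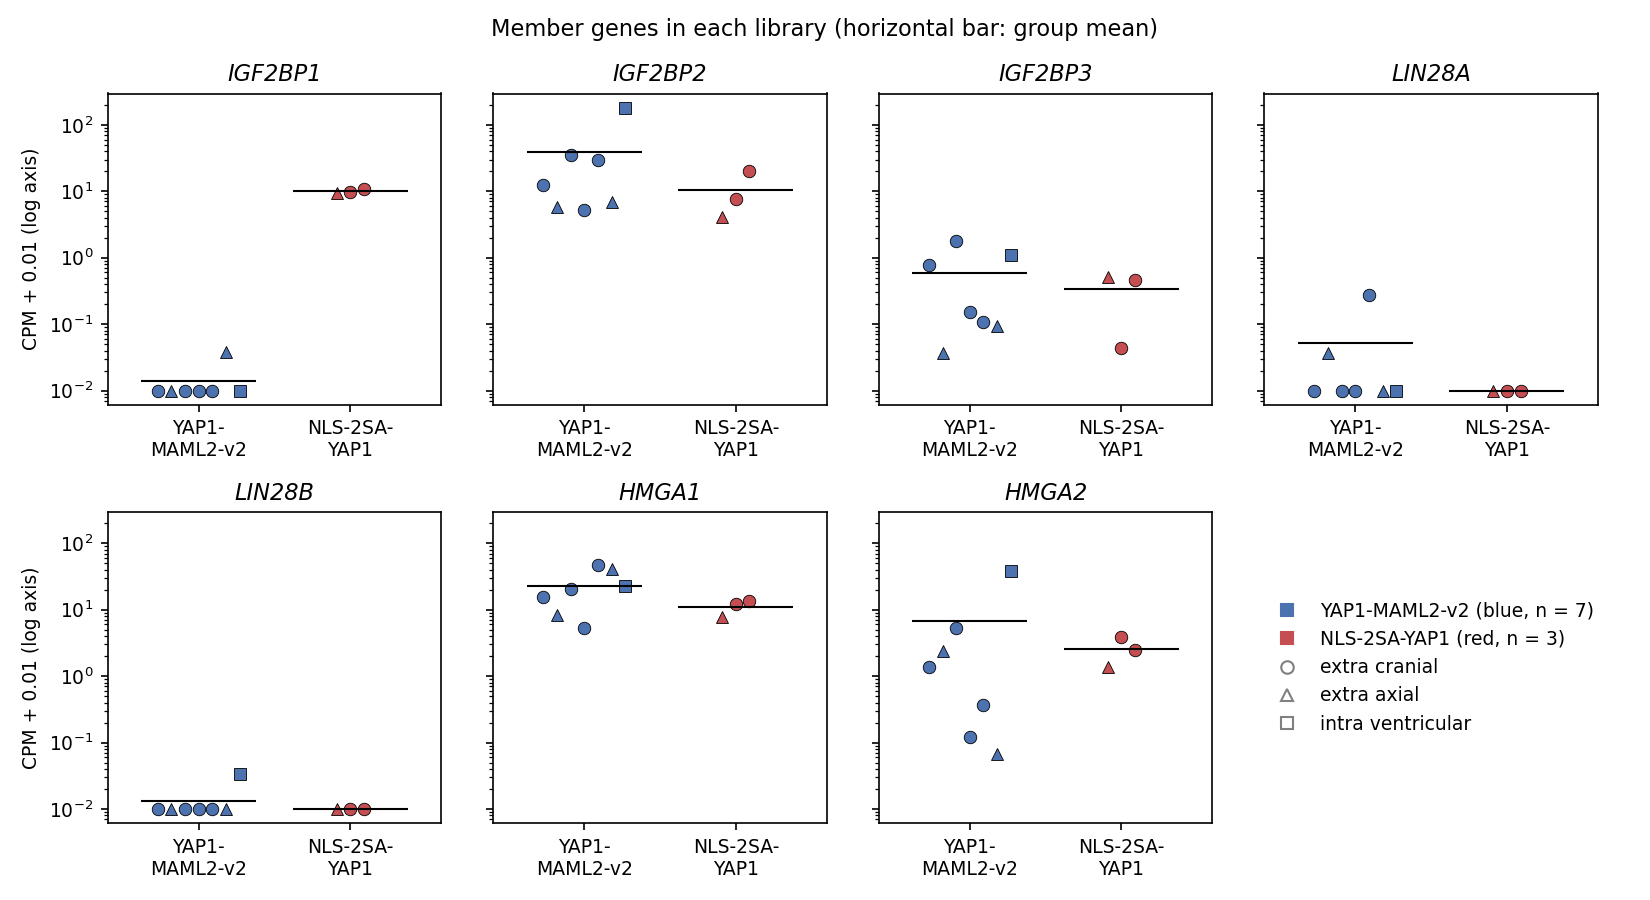
CPM plus 0.01 on a log axis for each member gene (panels), with 1 point per library, blue for YAP1-MAML2-v2 (n = 7) and red for NLS-2SA-YAP1 (n = 3), shapes for the region and a bar for the group mean. IGF2BP1 alone separates the constructs, and the square of the intra ventricular library is highest for IGF2BP2 (181 CPM) and HMGA2 (37.7 CPM).

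By median level per kilobase over the 10 libraries the order was HMGA1 (6.76), IGF2BP2 (1.36), HMGA2 (0.275) and IGF2BP3 (0.0364), with the median of IGF2BP1, LIN28A and LIN28B at 0. The ranges of neighbours in this order overlapped: 2.52 to 22.2 for HMGA1, 0.556 to 24.5 for IGF2BP2, 0.0083 to 5.57 for HMGA2 and 0.00321 to 0.22 for IGF2BP3. IGF2BP1 ranged from 0 to 1.09.

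Between the constructs, 5 of the 7 members passed the filter on low values and 4 of them were tested, IGF2BP1 being the gene chosen on this contrast. Of these 4, 0 passed edgeR's quasi-likelihood test over all genes, 0 had an unadjusted p under 0.05, and all 4 overlapped between the groups. Over all 13707 genes edgeR called 0.0146%, 13.1% had an unadjusted p under 0.05 and 6.73% did not overlap. DESeq2 and limma-voom with sample quality weights also called 0 of these genes, though DESeq2 gave IGF2BP3 no adjusted p, while DESeq2 called 5.09% and limma-voom 0.671% of all genes. The paralogs and partners therefore showed no difference between constructs that these 10 libraries could resolve, which does not show that they are equal.

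Between regions, extra axial (n = 3) and extra cranial (n = 6) tumors overlapped for each of the 7 members, where 0.89% of all genes did not overlap. IGF2BP2 had the smallest p. Its extra axial tumors stood at 4.12, 5.69 and 6.83 CPM, and its extra cranial tumors ran from 5.16 to 35.3 CPM with a median of 16.2. The log2 fold change was -1.72 (SE 0.62), with an unadjusted edgeR p of 0.0196 and an adjusted p of 1. Over all genes, 3.01% had an unadjusted p under 0.05 between regions and edgeR called 0. The sign of IGF2BP2 was negative in all 19 other settings, with adjusted p-values of 0.405 to 1. Skeletal muscle markers had negative values too, in 7 of 7 tested (median log2 fold change -3.54, 0 called), through the 3 extra cranial tumors with sums of 53.8 to 255 CPM. IGF2BP2 was 35.3, 7.58 and 19.8 CPM in those 3 tumors and 12.6, 5.16 and 29 CPM in the other 3. The part of muscle in this difference was not tested.

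IGF2BP1 is described between regions with no test, since it passed the filter only through the NLS-2SA-YAP1 tumors. The extra axial NLS-2SA-YAP1 tumor had 9.38 CPM and the extra cranial ones 9.74 and 10.6 CPM. IGF2BP3 had a log2 fold change of -1.60 (SE 1.81), HMGA1 -0.11 (SE 0.69) and HMGA2 -0.77 (SE 1.26), each with an edgeR adjusted p of 1. Whether the construct difference changed with region was fitted to 9 libraries, with 1 NLS-2SA-YAP1 extra axial tumor. Of the 4 tested members, IGF2BP1 left out, 0 were called in that fit (edgeR adjusted p of 0.76 to 1), against 0.00741% of 13487 genes, and 0 had an unadjusted p under 0.05, against 7.14%.

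**Figure D4:**
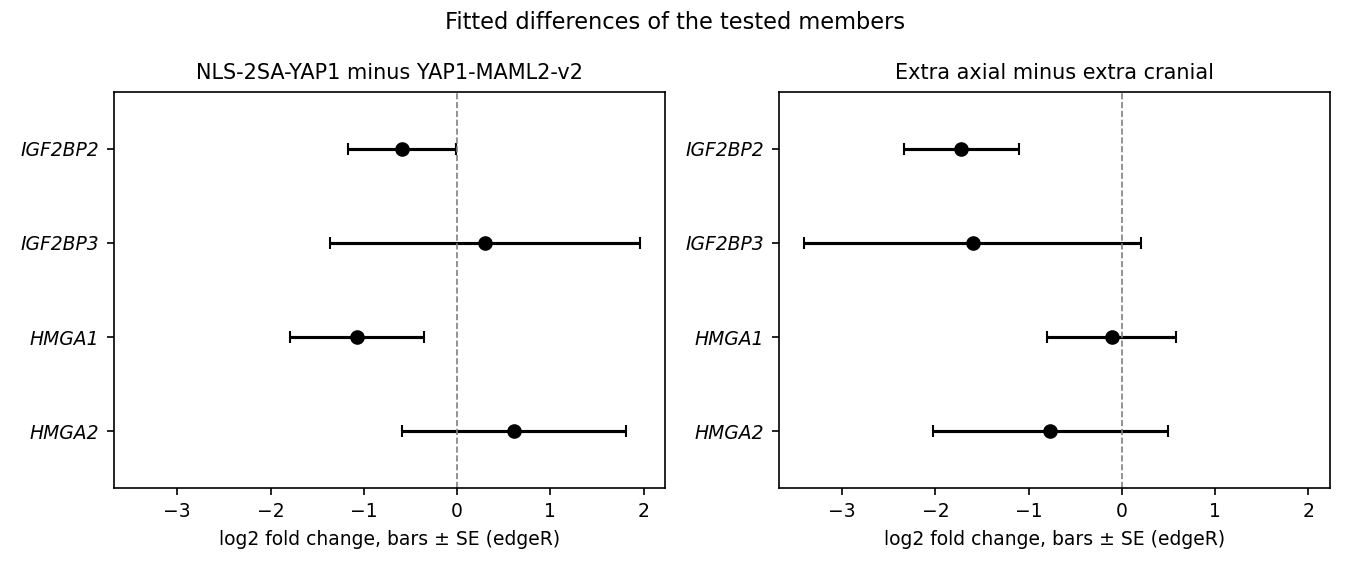
Fitted log2 fold change (horizontal axis) with bars of 1 SE from edgeR for the tested members without IGF2BP1, between constructs (left) and between regions (right). IGF2BP2 lies farthest from 0 in SE units between regions, at -1.72 with an SE of 0.62.

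The single intra ventricular tumor, YAP1-MAML2-v2 replicate 7, stood apart in 2 members and in IGF2, the growth factor whose mRNA gave the IGF2BP family its name. IGF2BP2 was 5.13 times and HMGA2 7.17 times the next highest library, YAP1-MAML2-v2 replicate 3 in both cases. IGF2 reached 7680 CPM, 4.35 times the next highest, NLS-2SA-YAP1 replicate 3 at 1770 CPM. HMGA1 and IGF2BP3 were not highest there, at 23 and 1.09 CPM. Of all tested genes, 19.9% had their highest level in this library and 1.92% were at least 5 times the next highest. With 1 tumor in this region there is no test. Most neural progenitor and neuron markers stood apart in the same library. There 11 of 12 had their highest level, such as the synaptic protein SNAP25 at 39.8 CPM (next highest 1.87) and the neuronal STMN2 at 14.7 CPM (next highest 0.127). The exception, TUBB3, was lowest there, at 360 CPM against 378 to 1070 CPM elsewhere. With TUBB3 the summed level was 671 CPM, inside the range of the other libraries, 480 to 1080 CPM. Macrophage markers were highest there in 7 of 9 (summed level 2470 CPM) and meningeal markers in 3 of 14 (summed level 12000 CPM). The part of these cells in the levels of IGF2BP2, HMGA2 and IGF2 was not tested.

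Across libraries the members did not move as 1 group. HMGA2 and IGF2 had a Pearson correlation of 0.74 on log2 CPM (n = 10), and 0.64 without the intra ventricular library. IGF2BP2 and HMGA2 had 0.65, and 0.31 without it. IGF2BP2 had 0.53 with HMGA1 (0.61 without that library) and 0.59 with IGF2BP3 (0.48 without that library). HMGA1 and HMGA2 had -0.05, and -0.25 without it. IGF2BP1 had -0.30 with IGF2BP2, and -0.21 without it. With HMGA2 it had 0.15, and 0.41 without it. These are descriptions over libraries that share constructs and regions, and those of IGF2BP1 follow the split by construct.

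The genes whose pattern was most like each remaining member differed. For IGF2BP2 they were MT1E (r = 0.96), STXBP6 (0.953) and MT2A (0.944), where MT1E and MT2A are metallothioneins that bind zinc and copper. These genes were at 126, 191 and 281 CPM in the intra ventricular library, with 27.5, 34.9 and 63.8 CPM the next highest. For HMGA2 they were KIAA2012 (0.955), TEX2 (0.947) and SLC25A1 (0.933), the mitochondrial citrate carrier. KIAA2012 was at 12 CPM in the intra ventricular library and at most 1.77 CPM elsewhere. HMGA1 was closest to CELF1 (0.96), an RNA-binding splicing factor, KLRC1 (0.942) and FCRL6 (0.94). KLRC1 and FCRL6 were low, at most 2.42 and 1.88 CPM. IGF2BP3 was closest to GABRG1 (0.947), ERBB4 (0.943) and FOXL2 (0.942), each listed at 0 in the same 5 libraries, which are replicates 2, 4, 5 and 6 of YAP1-MAML2-v2 and replicate 2 of NLS-2SA-YAP1. All r values are over 10 libraries on log2 CPM, the intra ventricular one included.

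The machinery around LIN28 and let-7 was mostly lower in NLS-2SA-YAP1 tumors by fitted value, with 0 genes called by edgeR. DESeq2 called DDX3X, beside 5.09% of all genes, and its calls in the other lists are to be held to that share. Of 20 tested processing genes and LIN28 partners 18 were lower and 2 higher, with a median log2 fold change of -0.50, beside -0.03 over all genes. At an unadjusted p under 0.05 there were 7 of 20, beside 13.1% of all genes, a share to which the counts of the other lists are also to be held. DDX3X, an RNA helicase, ranged from 199 to 264 CPM with NLS-2SA-YAP1 against 347 to 767 CPM with YAP1-MAML2-v2 (log2 fold change -1.20, SE 0.38, edgeR adjusted p = 0.262). It was the 1 member of this list whose groups did not overlap, beside 6.73% of all genes. TRIM71, a ubiquitin ligase and let-7 target of stem cells, was low, at 0.0239 to 0.276 against 0.0237 to 3.57 CPM, with deposited values of 1 in both groups (edgeR adjusted p = 0.301). DICER1, which cuts the let-7 precursor, had 92.8 to 101 CPM against 69.4 to 200 CPM (edgeR adjusted p = 0.797).

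Textbook let-7 targets went both ways. Of 24 tested mRNAs 11 were higher and 13 lower, the median was -0.10 (0.01 with library totals as the scale), and edgeR called 0, with 7 at an unadjusted p under 0.05. CDK6, a G1 cyclin-dependent kinase, ranged from 3.37 to 12.7 CPM with NLS-2SA-YAP1 against 21 to 101 CPM with YAP1-MAML2-v2 (log2 fold change -2.91, SE 0.63, edgeR adjusted p = 0.161). Its partner CCND1, cyclin D1, had 1590 to 2240 CPM against 260 to 868 CPM (log2 fold change 1.87, SE 0.44, edgeR adjusted p = 0.175). The 2 genes thus lay in opposite directions, each without overlap. Of the 24 tested, 3 lay apart as higher and 2 as lower with NLS-2SA-YAP1, beside 3.71% and 3.03% of all genes. DESeq2 called both, and BACH1, beside 5.09% of all genes.

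mRNAs that IGF2BP proteins are known to bind were higher in 11 of 16 and lower in 5, with a median of 0.36, 0 called by edgeR and 4 at an unadjusted p under 0.05. TAGLN, the actin-binding protein transgelin, ranged from 651 to 944 CPM with NLS-2SA-YAP1 against 105 to 430 CPM with YAP1-MAML2-v2 (log2 fold change 1.78, SE 0.38, edgeR adjusted p = 0.161). GLI1, the Hedgehog transcription factor, had 35.4 to 53.8 CPM against 0.652 to 17.6 CPM (log2 fold change 3.67, SE 0.88, edgeR adjusted p = 0.178). Both were called by DESeq2 and by limma-voom with sample quality weights, and CD44 by DESeq2. Of all genes, DESeq2 called 5.09% and limma-voom 0.671%. IGF2 had 1130, 1160 and 1770 CPM in NLS-2SA-YAP1 tumors and 4.85 to 7680 CPM in the others (log2 fold change 2.39, SE 1.08, edgeR adjusted p = 0.389). MYC, the best studied of these targets, had 11.3 to 44.9 CPM against 8.17 to 142 CPM (log2 fold change -1.70, SE 0.63, edgeR adjusted p = 0.305), so the list did not lie on 1 side.

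Among 12 proteins found in IGF2BP particles, 4 were higher and 8 lower, the median was -0.46, and edgeR called 0, with 4 at an unadjusted p under 0.05. MATR3, a nuclear matrix RNA-binding protein, ranged from 2.68 to 3.82 CPM with NLS-2SA-YAP1 against 11.2 to 29.4 CPM with YAP1-MAML2-v2 (log2 fold change -2.61, SE 0.49, edgeR adjusted p = 0.127). YBX1, a cold shock protein that coats mRNA, had 472 to 771 CPM against 116 to 274 CPM (log2 fold change 1.29, SE 0.28, edgeR adjusted p = 0.161). DESeq2 called both and DHX9, beside 5.09% of all genes. Of 17 tested m6A genes 2 were higher and 15 lower, with a median of -0.34, 0 called and 1 at an unadjusted p under 0.05 (4 higher and 13 lower with library totals as the scale). The m6A erasers FTO (44.9 to 88.7 against 72.5 to 240 CPM) and ALKBH5 (45.7 to 120 against 32.3 to 162 CPM) had the smallest p, with edgeR adjusted values of 0.353 and 0.424.

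Other HMG chromatin proteins were higher in 7 and lower in 5 of 12, with a median of 0.08 and 0 called. HMG20B and HMGXB4 had the smallest p (edgeR adjusted p of 0.368 and 0.384). Oncofetal and imprinted growth genes were tested in 12 of 16 listed, with 7 higher, 5 lower, a median of 0.45 and 0 called by edgeR. GPC3, the fetal proteoglycan glypican-3, stood at 25.1, 63.1 and 85.6 CPM with NLS-2SA-YAP1 (replicates 1 to 3) and at 0.907 to 9.07 CPM with YAP1-MAML2-v2. Its groups did not overlap (log2 fold change 4.12, SE 0.85, edgeR adjusted p = 0.155). This held for 1 of the 12 tested, GPC3, beside 6.73% of all genes. DESeq2 and limma-voom called GPC3, beside 5.09% and 0.671% of all genes. Cell cycle genes were higher in 16 and lower in 6 of 22, with a median of 0.32 and 0 called, but 9 higher and 13 lower (median -0.07) without NLS-2SA-YAP1 replicate 2, and RRM2 and UBE2C had edgeR adjusted p-values of 0.365 and 0.48.

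**Figure D5:**
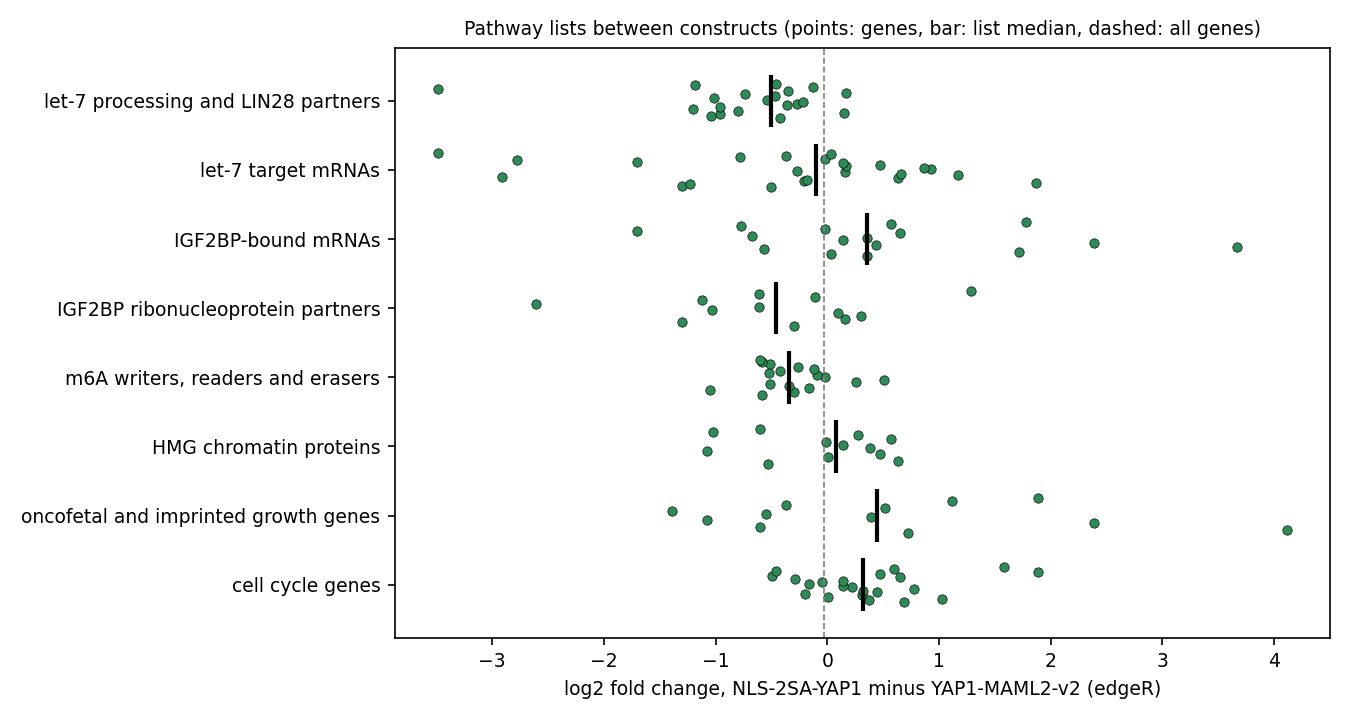
Log2 fold change between constructs (horizontal axis, edgeR) of each tested gene in 8 pathway lists (rows), with a black bar for the list median and a dashed line for the median of all genes, -0.03. Medians run from -0.50 for the let-7 processing genes to 0.45 for the oncofetal and imprinted growth genes, and single genes of 1 list lie on both sides of 0.

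Between regions these lists had medians of -0.05 to 0.33, apart from the cell cycle genes at 1.19 with 22 of 22 higher in extra axial tumors, and edgeR called 0 members of any list. Over all genes the median was -0.01, with 6766 of 13707 higher. Summed cell cycle levels were 1380 CPM in the extra axial YAP1-MAML2-v2 replicate 2, and 458 and 419 CPM in the other extra axial tumors. Those lower sums lay within the extra cranial range of 214 to 605 CPM. IGF2BP2, IGF2BP3, HMGA1 and HMGA2 had negative fitted values in the same comparison, though those of HMGA1 and HMGA2 turned in other settings.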

How the data were processed

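Per the submitters' processing notes, the authors used HTSeq and the mm10 build. The sources used here give no aligner, annotation, version or strand setting. Whole numbers under human-style symbols were deposited by the authors and were treated here as estimated counts, since 0 and 1 are in excess: 10505 genes had a median above 200, and theirs included 251 values at 0, 219 at 1 and 21 at 2. The test had been planned for raw counts and was run without further rounding. Ignoring case, 91.6% of symbols match GENCODE M21, which gave coordinates, exon lengths and 3′ UTRs.

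Genes were kept with filterByExpr by construct at a minimum count of 10 and scaled by TMM. The quasi-likelihood test of edgeR 4.0.16 (under R 4.3.3) took all 10 libraries, with terms for construct and for region, and p-values were adjusted by Benjamini-Hochberg over all genes. The intra ventricular library is fitted by its own term. CPM used the TMM-scaled totals, and log2 CPM a prior count of 2. DESeq2 1.42.0 and limma 3.58.1 were alternatives. The fits were tested on simulated data, but no result of that test is given here. Whether the simulated data shared the excess of low deposited values is not stated, so nothing is read from that test. Lists are described by counts and medians, with no set test.

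The members and lists were chosen with earlier results of these data known. Named genes are the members, the 2 list genes of smallest p, IGF2, MYC, DICER1 and TRIM71, the nearest patterns (5 for IGF2BP1, 3 for others), and YAP1 and MAML2. BACH1, CD44, DHX9, NANOG, SNAP25, STMN2, TDRD1 and TUBB3 were named after their values were seen.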

Additional observations from a re-analysis of the deposited data

Results flagged for a closer look

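Among 13 groups of 6 or 7 libraries in which a member had a value above 0, 7 held a library set apart from the others by a gap too large for its group size. Chance gives about 1 in 20 for ordinary values, but a single value above 0 among values of 0 always meets this rule, as in IGF2BP1, LIN28B and the extra cranial LIN28A values, so the count is not to be read against that rate. In YAP1-MAML2-v2 tumors, IGF2BP2 stood at 181 CPM in replicate 7, with the next library at 35.3 CPM. HMGA2 stood at 37.7 CPM in the same library, with the next at 5.26 CPM. Both are the intra ventricular tumor, and the region holds no other. HMGA1 in extra cranial tumors stood at 47.2 CPM in YAP1-MAML2-v2 replicate 5, with the next library at 20.6 CPM. LIN28A stood at 0.264 CPM, a deposited value of 8, in the same library, both among YAP1-MAML2-v2 and among extra cranial tumors. The other gaps are single values of 1 among values of 0: IGF2BP1 at 0.0281 CPM in YAP1-MAML2-v2 replicate 6 and LIN28B at 0.0237 CPM in replicate 7.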

How the results depend on the processing

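The number of genes called between constructs, 2 in the edgeR fit, was 685 with DESeq2 (224 higher, 461 lower), 92 with limma-voom and sample quality weights, 4 with limma on log2 CPM, 8 with values of 0 and 1 as missing, 4 without a filter on low values and 4 in extra cranial libraries only. Leaving out 1 library gave 0 to 2. It was 0 without YAP1-MAML2-v2 replicates 2, 4 or 6 or NLS-2SA-YAP1 replicates 2 or 3, and 1 without YAP1-MAML2-v2 replicates 3 or 5. Between regions DESeq2 called 31 in place of 0, and leaving out 1 library gave 0 to 1, with 1 gene called without YAP1-MAML2-v2 replicate 6 or NLS-2SA-YAP1 replicate 1. For the interaction DESeq2 called 204 and limma-voom 0, in place of 1. IGF2BP2, IGF2BP3, HMGA1 and HMGA2 were not called between constructs or regions under any of these settings, with no adjusted p for IGF2BP3 between constructs in DESeq2. The IGF2BP1 mean in NLS-2SA-YAP1 tumors stayed between 9.56 and 10.3 CPM.

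IGF2BP2 and HMGA1 were lower in NLS-2SA-YAP1 tumors in 20 of 20 settings (-1.91 to -0.28 and -1.31 to -0.36 on the log2 scale). IGF2BP3, at 0.30, turned with limma-voom (-1.13), without the region term (-0.79), in extra cranial libraries (-1.53), with the replicate block (-0.96) and without YAP1-MAML2-v2 replicates 2 (-0.54) or 6 (-0.37) or NLS-2SA-YAP1 replicate 1 (-1.53). HMGA2 turned without the region term (-1.41) and with the replicate block (-0.14). Between regions the fitted value of IGF2BP1, which rests on values of 0 and 1 and is not read as a test, went from 0.82 to 0.16 with limma on log2 CPM and turned when that fit took values of 0 and 1 as missing (-0.11, which drops all 7 YAP1-MAML2-v2 libraries), without the construct term (-0.11) and without YAP1-MAML2-v2 replicate 6 (-0.07). HMGA1 turned with limma-voom (0.14), with library totals (0.05), without the construct term (0.01), in YAP1-MAML2-v2 tumors only (0.11) and without YAP1-MAML2-v2 replicates 2 (0.25) or 5 (0.35) or NLS-2SA-YAP1 replicate 1 (0.11). HMGA2 turned without YAP1-MAML2-v2 replicate 3 (0.30). Leaving out 1 library gave ranges of -1.53 to 1.54 for IGF2BP3 and 0.33 to 1.69 for HMGA2 between constructs and, between regions, -3.63 to -0.52 for IGF2BP3, -0.07 to 2.29 for IGF2BP1, -1.06 to 0.35 for HMGA1 and -2.58 to 0.30 for HMGA2. The cause was not tested.

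The constructs share replicate numbers 1 to 3, but correlations of their deviations were 0.17, 0.34 and -0.07, so the numbers were not taken as pairs. With the replicate block, 2 genes were called. Of the let-7 processing genes 16 to 18 of 20 were lower in every setting. The median of the let-7 target list ran from -0.32 to 0.10 that of the HMG list from -0.17 to 0.41 and that of the cell cycle list from -0.07 to 0.84, so these 3 lists have no stable sign. The other 5 kept theirs in the 20 settings.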
